A study of Mus musculus with 4 samples.

Results

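The keratins and keratin-associated proteins of the mouse nasal mucosa were compared between young adult and aged mice. Members were the genes whose array probe carried an accession that matched a RefSeq gene with a symbol starting in Krt or Krtap followed by a digit, control probes left out. This gave 107 genes, measured by 116 probes, of the 45616 genes and 56605 probes on the array. They fall into 29 epithelial keratins, 9 keratins of the inner root sheath and companion layer of the hair follicle, 16 hair keratins and 53 keratin-associated proteins. RNA came from the septal nasal mucosa of male C57BL/6J mice, labelled as olfactory epithelium. Neither the titles nor the paper's account of the arrays names a treatment or a transgene. The paper used collagen reporter mice for histology only. A free-text label shared by every sample speaks of silica aspiration and of lung cells, which contradicts the tissue labels and the paper, and it was left aside. The young adult group was 8 weeks of age and the aged group 16 months. Each age had 2 arrays, and each array was hybridized with 1 RNA pool from 5 mice, so the spread between arrays of an age is that between pools, not between mice. The paper allots fewer mice per age to gene analyses than separate pools of that size would take, so the pools of an age may share mice. Sharing is not stated either way, and SDs and *P*-values measure only the spread between these pools, which may be smaller than that between independent pools.

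Keratins are the intermediate filament proteins of epithelial cells. A filament is built from an acidic type I keratin, encoded mostly on chromosome 11 in the mouse, and a basic type II keratin, encoded on chromosome 15, and the pair a cell makes follows its type: *Krt8* with *Krt18* in simple epithelium, *Krt5* with *Krt14* in basal cells, *Krt1* with *Krt10* above the basal layer of the epidermis and *Krt4* with *Krt13* above that of moist mucosa. In the olfactory epithelium, *Krt5* and *Krt14* mark the horizontal basal cells, a reserve stem cell population, and *Krt8* and *Krt18* are made by the sustentacular cells and the duct and gland cells. Hair keratins and keratin-associated proteins are the filament and matrix proteins of the hair shaft, where the cysteine-rich or glycine- and tyrosine-rich keratin-associated proteins crosslink the filaments.

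The promoter windows below are those of the members that passed the test and had an entry in the RefSeq promoter table (build GRCm38.p6), with *Krt14*, the partner of *Krt5*, beside them. They are the 100 bases before the annotated start, written 5′ to 3′ on the strand of the gene, with matches to the TATA box letters TATAAA in capitals. The windows lie on the minus strand at chr16:89571184-89571283 for *Krtap11-1*, chr11:99351119-99351218 for *Krt27*, chr11:100029869-100029968 for *Krt33b*, chr15:101892921-101893020 for *Krt76*, chr15:101712906-101713005 for *Krt5* and chr11:100206031-100206130 for *Krt14*.
Krtap11-1: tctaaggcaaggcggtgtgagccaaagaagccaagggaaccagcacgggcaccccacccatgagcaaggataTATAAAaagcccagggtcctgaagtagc
Krt27: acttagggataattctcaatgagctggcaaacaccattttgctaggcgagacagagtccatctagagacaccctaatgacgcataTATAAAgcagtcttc
Krt33b: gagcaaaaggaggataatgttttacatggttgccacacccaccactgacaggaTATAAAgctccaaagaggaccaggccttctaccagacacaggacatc
Krt76: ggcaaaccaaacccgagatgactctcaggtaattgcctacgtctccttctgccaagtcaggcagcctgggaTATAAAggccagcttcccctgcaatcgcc
Krt5: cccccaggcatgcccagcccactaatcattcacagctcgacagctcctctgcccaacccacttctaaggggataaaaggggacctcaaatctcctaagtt
Krt14: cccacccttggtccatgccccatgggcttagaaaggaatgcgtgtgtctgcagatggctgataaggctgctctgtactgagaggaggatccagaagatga
The letters TATAAA stood in the windows of *Krtap11-1*, *Krt27*, *Krt33b* and *Krt76* and not in those of *Krt5* and *Krt14*.

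Across the members the share of windows with these letters, read on both strands, differed between the classes. An entry was found for 84 of the 107 members, with 85 windows. TATAAA was in 38 of 48 windows of keratin-associated proteins (79.2%), 6 of 8 of root sheath and companion keratins, 5 of 9 of hair keratins and 4 of 20 of epithelial keratins, against 5.56% of the 32851 windows of all genes. The GC box letters GGGCGG were rarer, in 2.35% of the members' windows, against 24.7% of all windows. The AP-1 letters TGANTCA were in 2.35% of the members' windows and 2.73% of all, and the AP-2 letters GCCNNNGGC in 4.71% and 6.78%. AP-2 and GC box letters can overlap in GC-rich sequence, and the matches are a description of the windows only.

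Spots of the 4 arrays well above background made up 68.1% and 76.8% of the non-control spots in the young adult group and 63.1% and 72.7% in the aged group, and no spot was saturated. Log2 levels of all genes correlated at 0.982 to 0.989 between arrays of different age and at 0.987 or more between arrays of one age. Markers of the labelled tissue were present: *Omp*, made by mature olfactory neurons, and *Cyp2g1*, made by sustentacular and gland cells, were well above background on every array. *Bpifa1*, a marker of respiratory secretory cells, was so too, with mean levels of 322178 in young adult and 367050 in aged arrays. The markers therefore do not show that only olfactory epithelium was sampled. Young adult array 1 and aged array 1 shared a slide, and the other two arrays lay on slides of their own, so differences within the shared slide are given where they matter. A level is the normalized intensity of a gene's probe, a difference is aged minus young adult on the log2 scale, and a gene is called here if its *P* was below 0.05 and its false discovery rate (FDR) over all genes below 0.25. A called gene with a mean level of 100 or more that differed 1.5-fold or more was also counted as a differentially expressed gene (DEG). Both limits follow the methods of the paper that reported the arrays.

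Of the 107 members, 5 fell with age and 2 rose. *Krt15*, *Krt5*, *Krt6b* and *Krt76*, epithelial keratins, and the hair keratin *Krt33b* were called lower, and the keratin-associated protein *Krtap11-1* and the root sheath keratin *Krt27* were called higher. Over all genes, 2.33% were called lower and 1.65% higher. DEGs among the members were *Krt15*, *Krt6b* and *Krt33b*, lower, and *Krtap11-1*, higher, where 1.15% of all genes were DEGs lower and 0.813% DEGs higher. The paper's lists of top genes already hold *Krtap11-1* as upregulated with age and *Krt76* as downregulated. Here *Krt76* was no DEG, since its mean level of 57.9 was below the limit. The levels that the paper lists for it are also below that limit at each age. The calls rest on the full set of arrays: leaving out any single array of the 4 left no called gene anywhere, the smallest FDR then being 0.408 to 0.677, while 6 of the 7 called members kept their direction each time and *Krt27* was not followed.

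The classes differed in their counts. Of the 29 epithelial keratins, 26 had a lower mean in the aged arrays, 4 were called lower and none higher, and the median difference was -0.27, with a range from -1.59 to 0.17. Of the 16 hair keratins, 12 were lower, 1 was called lower and the median was -0.16. Of the 53 keratin-associated proteins, 27 were lower and 26 higher, 1 was called higher and the median was -0.01. The 9 root sheath and companion keratins had 1 called higher and a median of 0.01. Over all genes 48.5% were lower and the median was 0.01. In 18 of the 29 epithelial keratins (62.1%) the aged arrays were both lower than either young adult array, and in 2 both were higher. The same held for 5 of 16 hair keratins below and none above, for 7 of 53 keratin-associated proteins below and 6 above, and for 21.8% of all genes below and 24.2% above. Within the shared slide the median difference was -0.27 for epithelial keratins, -0.03 for hair keratins and 0.00 for keratin-associated proteins (-0.0025), and on the other arrays it was -0.20, -0.25 and -0.09. The class medians are not tested, since they share arrays and the members were chosen with results known.

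**Figure D1:**
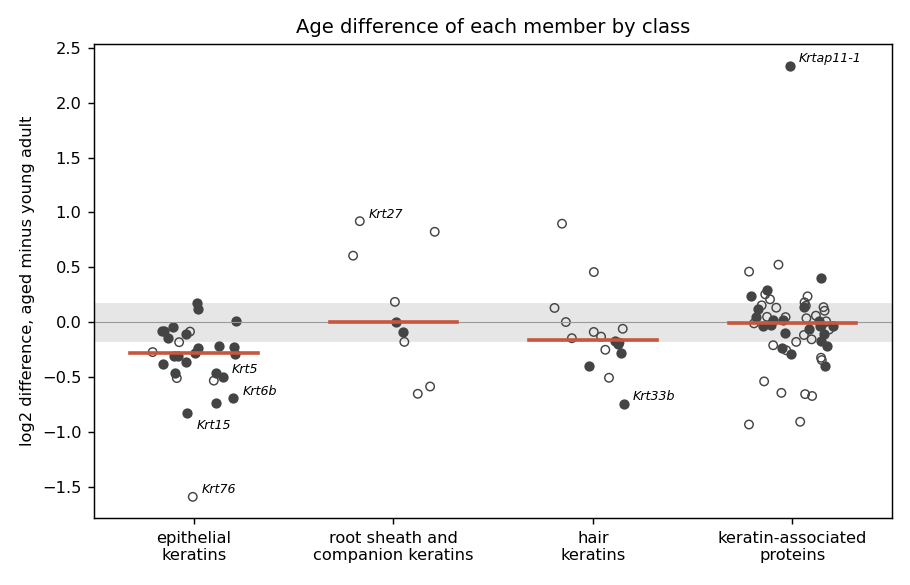
Each point is one member, with its log2 difference (aged minus young adult, 2 arrays per age) on the vertical axis and its class on the horizontal axis. Filled points were well above background on all 4 arrays and open points were not, red bars are class medians, the grey band is the interquartile range of all genes (-0.17 to 0.17), and called members carry their names. Most epithelial keratins lie below 0, the keratin-associated proteins lie around it, and *Krtap11-1* stands apart at 2.34.

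How far the classes were measurable differed as well. Of the epithelial keratins, 23 of 29 were well above background on all 4 arrays and 1, *Krt12*, the corneal keratin, on none. Of the hair keratins 5 of 16 were above background on all arrays and 6 on none, and of the keratin-associated proteins 22 of 53 and 23. Of the root sheath and companion keratins 2 of 9 were above background on all arrays and 5 on none. A member not above background has no firm level, so its difference has no firm size. Members also include near-identical copies, such as *Krt6a* and *Krt6b*, *Krt81*, *Krt83* and *Krt86*, and the *Krtap4* and *Krtap5* families, whose probes may read more than one gene, which was not tested.

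The basal keratins were lower in the aged mucosa. *Krt15*, a type I keratin of basal cells, had levels of 9600 and 9701 in young adult and 5487 and 5415 in aged arrays. Its arrays did not overlap by age, and the difference was -0.82 (SE 0.07, FDR = 0.178). *Krt5* had levels of 14712 and 15152 in young adult and 10687 and 10542 in aged arrays, a difference of -0.49 (SE 0.08, FDR = 0.216). Within the shared slide *Krt15* differed by -0.81 and *Krt5* by -0.46, and on the other arrays by -0.84 and -0.52. *Krt14*, the filament partner of *Krt5*, measured 8652 and 8533 in young adult and 7163 and 6770 in aged arrays, a difference of -0.30 (SE 0.08) that did not pass the test (FDR = 0.313). For each of the 3 basal keratins the ages did not overlap. The difference of *Krt15* was 0.52 log2 units below that of *Krt14*, and that of *Krt5* 0.19 below it (-0.52 and -0.19), without overlap between ages in either pair. The smallest *P* that 2 against 2 arrays allow in an exact permutation test (two-sided) is 0.333, which both pairs had. In RNA of whole mucosa, fewer cells of a type and less RNA per cell cannot be told apart.

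Markers of horizontal basal cells were read beside the basal keratins. All 7 listed genes exceeded background clearly on every array, and 1, *Itga6*, the integrin subunit that anchors basal cells to the basement membrane, was called lower, from 1928 and 1996 to 1338 and 1243 (difference -0.61, SE 0.09, FDR = 0.209). *Trp63*, the transcription factor of basal cells, measured 4964 and 4969 in young adult and 5120 and 5168 in aged arrays (difference 0.05, FDR = 0.802). *Itgb4*, which pairs with *Itga6* in hemidesmosomes, differed by -0.39 (FDR = 0.262). The median of the list was -0.21, and its summed level ran from 18821 to 19335 in young adult and from 16517 to 16813 in aged arrays. Among all genes 2.33% were called lower and 1.65% higher. The part of horizontal basal cells in the lower basal keratins was not tested.

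**Figure D2:**
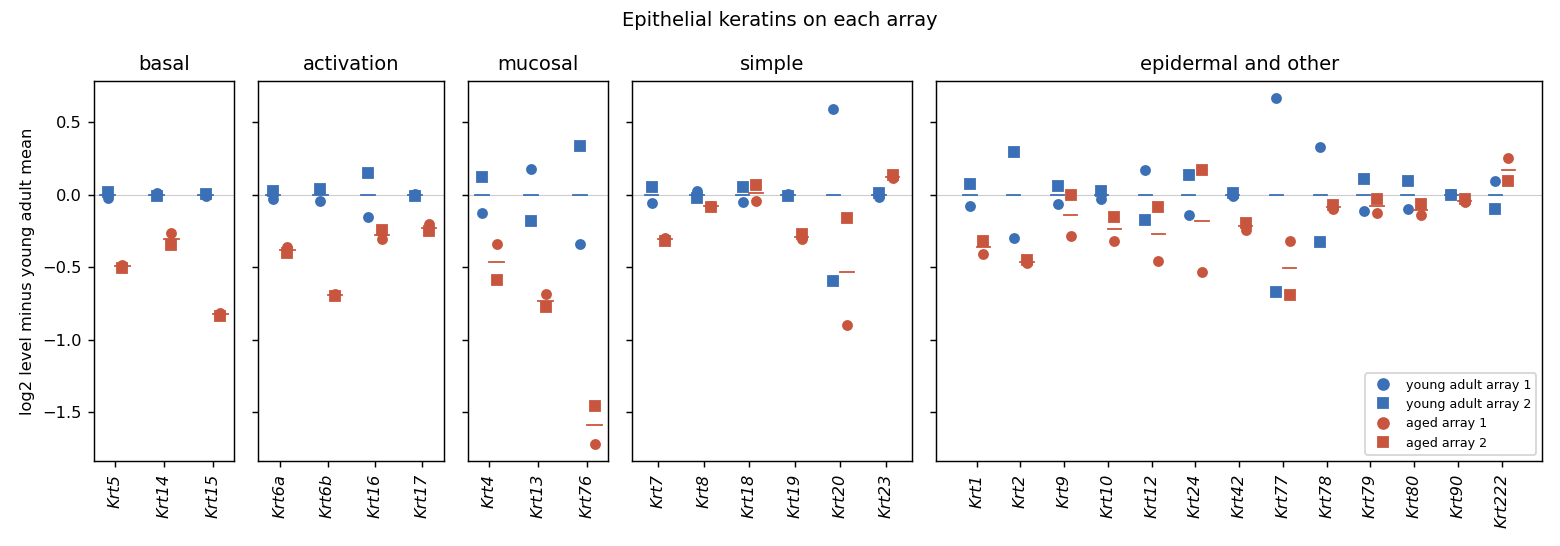
Levels of the 29 epithelial keratins on each of the 4 arrays, as log2 level minus the mean of the young adult arrays of that gene (vertical axis), grouped by role. Blue marks are young adult and red marks aged arrays, circles are the arrays that shared a slide and squares the others, and short lines are the means of the 2 arrays. The basal, activation and mucosal keratins lie below the young adult arrays on both aged arrays, while *Krt18* and *Krt20* overlap.

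The keratins of activated or stressed epithelium, which keratinocytes make after wounding, also lay lower on both aged arrays in each of 4 members, with a median of -0.33. *Krt6b* fell from 335 and 355 to 215 and 213 (difference -0.69, SE 0.08, FDR = 0.192). Its within-slide difference was -0.64 and that of the other arrays -0.74. *Krt6a* measured 1549 and 1611 in young adult and 1233 and 1197 in aged arrays, a difference of -0.38 (SE 0.08) that missed the FDR limit (FDR = 0.264). *Krt17* differed by -0.23 (FDR = 0.382) and *Krt16*, the type I partner of *Krt6a*, by -0.27 (FDR = 0.517), so neither passed. The differences of *Krt6b* and *Krt17* were 0.46 log2 units apart (-0.46, exact permutation *P* = 0.333, no overlap), and those of *Krt6a* and *Krt16* overlapped between ages (-0.10, exact permutation *P* = 0.667). The probes of *Krt16* differed by -0.13 and -0.42.

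Of the keratins of moist stratified mucosa, *Krt76*, a type II keratin of the palate and gingiva, fell. Its levels were 67.3 and 108 in young adult arrays, both well above background, and 25.9 and 31.0 in aged arrays, neither well above background. For a fold, each aged array was taken at its own level or at its lowest level well above background, whichever was higher. The young adult level was then 2.98-fold the aged level, which is not a strict bound. The fitted difference of -1.59 (SE 0.29, FDR = 0.242) depends on the background correction and shrank to -0.79 where an offset of 50 was added. *Krt13* measured 248.7 and 194 in young adult and 137 and 129 in aged arrays, a difference of -0.73 (SE 0.16, FDR = 0.272), and its probes differed by -0.85 and -0.61. *Krt4*, its partner, measured 112 and 133 in young adult and 96.4 and 81.3 in aged arrays, a difference of -0.46 (FDR = 0.380). Neither *Krt13* nor *Krt4* passed the test, although the ages did not overlap in either. The gap between their differences, 0.27, overlapped between ages (exact permutation *P* = 0.667).

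The simple epithelial keratins gave no call. *Krt18* had levels of 147182 and 158246 in young adult and 148399 and 160308 in aged arrays, and the ages overlapped (difference 0.02, SE 0.09, FDR = 0.956). *Krt8*, its partner, measured 53092 and 51344 in young adult and 49467 and 49392 in aged arrays (difference -0.08, SE 0.08, FDR = 0.704). *Krt7* and *Krt19*, keratins of ducts and glands, differed by -0.31 (FDR = 0.327) and -0.29 (FDR = 0.309), without overlap between ages and with nearly the same difference (-0.02 apart, exact permutation *P* = 1). *Krt23*, a type I keratin, was slightly higher on both aged arrays, from 32808 and 33365 to 35904 and 36331 (difference 0.13, FDR = 0.567). *Krt20*, a keratin of intestinal and Merkel cells, was above background on 1 young adult array only, and its ages overlapped. The difference of *Krt5* lay 0.41 log2 units below that of *Krt8* (-0.41, no overlap, exact permutation *P* = 0.333). Marker genes of sustentacular cells, which make *Krt8* and *Krt18*, were well above background on all arrays in 9 of 9 cases. Of these, 1 was called higher (*Cyp1a2*), beside 1.65% of all genes, and none lower, beside 2.33%. The list had a median of 0.05 and a summed level of 1076650 to 1077090 in young adult and 1059020 to 1083230 in aged arrays.

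None of the 13 epidermal and other stratified keratins was called, and 12 of them had a lower mean in the aged arrays, with a median of -0.18. *Krt1* measured 174 and 194 in young adult and 138 and 147 in aged arrays (difference -0.36, FDR = 0.326). *Krt10*, its partner, measured 2003 and 2085 in young adult and 1640 and 1838 in aged arrays (difference -0.24, FDR = 0.455). In both, the aged arrays lay below the young adult arrays, and the gap between the partners was -0.13 (exact permutation *P* = 0.333). *Krt222*, a keratin-related gene, was the exception on the higher side, with 17751 and 15522 in young adult and 19771 and 17756 in aged arrays (difference 0.17, FDR = 0.613).

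Among the hair keratins, *Krt33b*, a type I keratin of the hair cortex, fell. Its levels were 159 and 147 in young adult and 89.4 and 93.7 in aged arrays (difference -0.74, SE 0.09, FDR = 0.193), with -0.83 within the shared slide and -0.65 on the other arrays. The arrays did not overlap, and the probe was well above background on all of them. The other hair keratins of highest mean level, *Krt31*, *Krt81*, *Krt83* and *Krt86*, were not called. *Krt83* differed by -0.27 (FDR = 0.492) and *Krt86* by -0.20 (FDR = 0.458), both without overlap, and *Krt81* by -0.17 (FDR = 0.678), with overlap. *Krt31*, a close relative of *Krt33b*, measured 227 and 424 in young adult and 233 and 239 in aged arrays. Its difference of -0.39 (FDR = 0.689) therefore came from young adult array 2 alone: within the shared slide it was 0.04 and without young adult array 2 it was 0.06. The remaining 11 hair keratins were not well above background on all arrays, and none was called. Among them *Krt33a* was above background on 1 young adult array only and overlapped between ages (difference -0.25, FDR = 0.882).

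Most of the root sheath keratins lay near the limit of detection. *Krt72* was well above background on all arrays. It measured 264 and 243 in young adult and 243 and 234 in aged arrays, with overlap (difference -0.09, FDR = 0.722). *Krt27*, a type I keratin of the inner root sheath, had levels of 32.2 and 29.0 in young adult and 60.4 and 55.4 in aged arrays, and was called higher (difference 0.92, SE 0.11, FDR = 0.190). It was well above background on 1 aged array only, and the call was lost when arrays were scaled to their 75th percentile. With the dimmer age treated as for *Krt76*, the aged level was 1.76-fold the young adult level, which is not a strict bound either. *Krt25*, a root sheath keratin of the same type I cluster, measured 21.1 and 17.97 in young adult and 31.0 and 38.3 in aged arrays. It was above background on no array (FDR = 0.259). *Krt71*, *Krt73* and *Krt28*, above background on no array, differed by -0.65, -0.58 and -0.18, and *Krt26*, also on none, by 0.19. *Krt74*, above background on 1 array of each age, differed by 0.61. In the mean, 5 of the 9 members of the class were higher and 4 lower. Of those named, only *Krt75* was within the rule for named genes, and the others were picked after their values were seen. *Krt75*, the companion layer keratin, averaged 0.01 (FDR = 0.986), but its brighter probe differed by -0.26 and its dim probe, above background on no array, by 0.27.

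**Figure D3:**
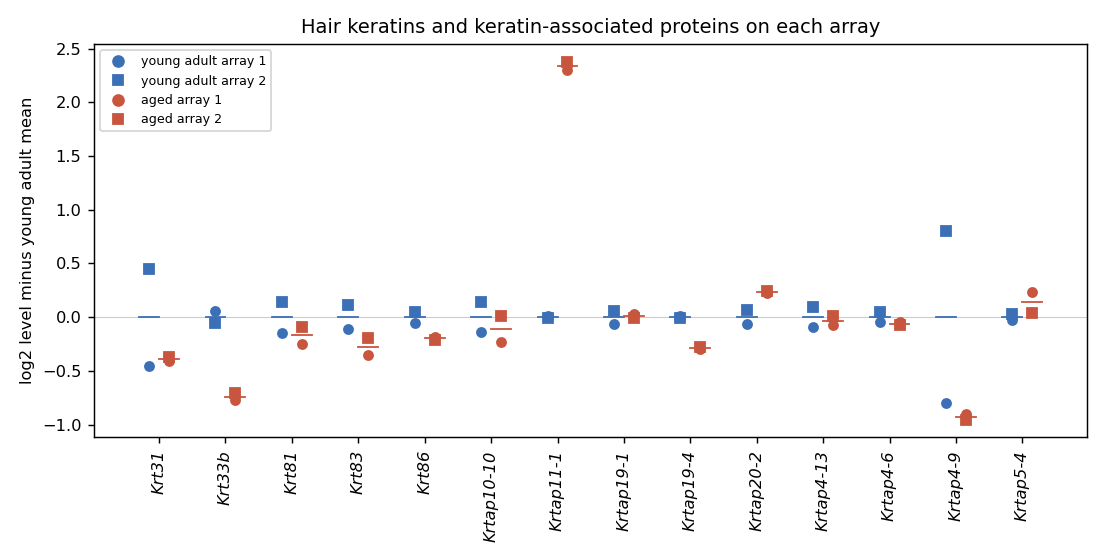
Levels of the named hair keratins and keratin-associated proteins on each array, as log2 level minus the young adult mean of that gene (vertical axis), with blue for young adult, red for aged, circles for the arrays that shared a slide and squares for the others. Short lines are means of 2 arrays. *Krtap11-1* is higher on both aged arrays by over 2 log2 units, *Krt33b* lower on both, and *Krt31* and *Krtap4-9* are set by young adult array 2.

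*Krtap11-1*, a keratin-associated protein of the hair cortex, rose about 5-fold (5.05-fold between the means). Its levels were 258 and 256 in young adult and 1263 and 1334 in aged arrays. The probe was well above background on every array, and the arrays of an age lay close together (257 ± 1.7 and 1299 ± 50.3, SD, n = 2). The difference was 2.34 (SE 0.08, FDR = 0.168), with 2.29 within the shared slide and 2.38 on the other arrays. It ranged from 2.13 to 2.47 over the other ways of processing.

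No other keratin-associated protein was called. The 5 of highest mean level, *Krtap4-6*, *Krtap4-13*, *Krtap19-4*, *Krtap10-10* and *Krtap19-1*, differed by -0.06, -0.04, -0.29, -0.11 and 0.01. Of these, *Krtap4-6* measured 23033 and 24559 in young adult and 22994 and 22627 in aged arrays (FDR = 0.788). *Krtap19-4*, of the glycine- and tyrosine-rich group, measured 3405 and 3353 in young adult and 2757 and 2788 in aged arrays, without overlap (FDR = 0.309). *Krtap20-2* was higher on both aged arrays, 812 and 825 against 664 and 728 (difference 0.24, FDR = 0.420), with probes at 0.07 and 0.40. *Krtap5-4* differed by 0.14 (FDR = 0.645). *Krtap4-9* had the largest fall among the members of the class that separated by age, -0.93 (FDR = 0.603), which young adult array 2 set: it read 197 there against 65.0 on young adult array 1 and 60.4 and 58.4 on the aged arrays. By family, the 5 *Krtap5* genes on chromosome 7 were all well above background on all arrays, with a median of -0.03 and a range of -0.23 to 0.14. The 8 *Krtap4* genes on chromosome 11 had a median of -0.05 and the 6 *Krtap19* genes on chromosome 16 a median of -0.01. The 22 members of the class on chromosome 11 had a median of 0.00 (0.005) and the 23 on chromosome 16 a median of 0.01.

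The genes beside *Krtap11-1* were read to see whether the rise extended along the chromosome. In RefSeq order *Krtap11-1* lies at the edge of a cluster of keratin-associated protein genes on chromosome 16, with *Krtap7-1* on one side and *Tiam1*, a Rac exchange factor, on the other. Of the 20 nearest genes, 10 on each side, 14 were on the array and none was called. *Tiam1* measured 644 and 618 in young adult and 527 and 490 in aged arrays (difference -0.31, FDR = 0.325). *Krtap7-1* measured 34.7 and 43.1 in young adult and 37.3 and 46.4 in aged arrays and overlapped. *Krtap21-1*, *Krtap6-2* and *Krtap8-1* were above background on no array. The other 9 genes on the *Tiam1* side differed by -0.28 to 0.15.

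**Figure D4:**
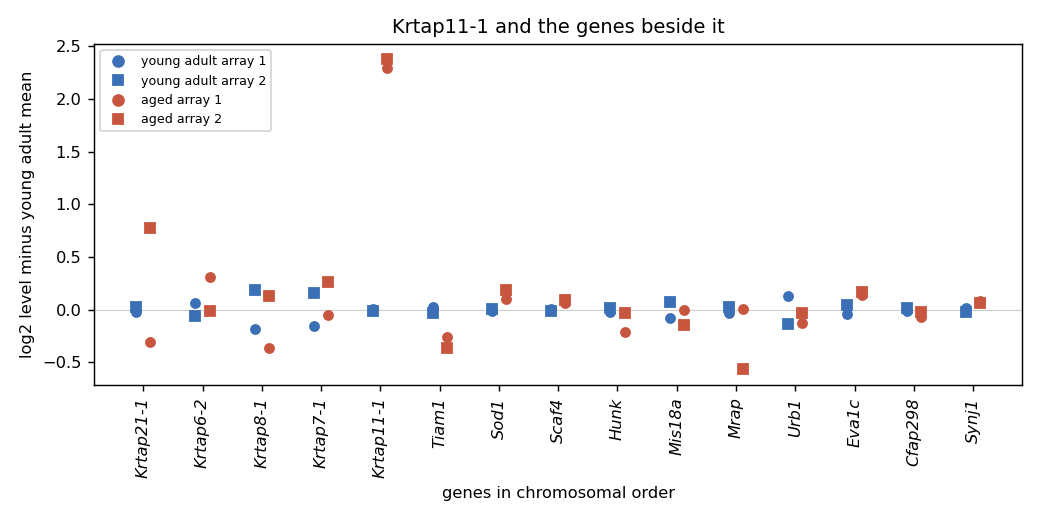
*Krtap11-1* and the 14 of its 20 nearest genes that were on the array, in chromosomal order (horizontal axis), as log2 level minus the young adult mean of each gene on each of the 4 arrays (vertical axis, blue young adult, red aged, circles for the arrays that shared a slide). Only *Krtap11-1* lies above 2, and none of the others was called.

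Other genes of hair shaft formation were counted beside the hair keratins. All 30 listed genes were on the array, 21 well above background on all arrays and 5 on none. Of them, 1 was called lower and none higher, and the median was -0.07. The shares among all genes were 2.33% called lower and 1.65% called higher. The gene called was *Msx1*, a homeobox factor of the hair matrix that other tissues also make, with 1059 and 974 in young adult and 543 and 552 in aged arrays (difference -0.89, FDR = 0.184). *Hoxc13*, which drives hair keratin genes, was above background on no array, and *Foxn1*, another regulator of hair keratins, on 1 young adult array only. The summed level of the list was 52839 to 53839 in young adult and 55087 to 55921 in aged arrays. Most of this sum came from *Lhx2* and *Crym*, both higher on both aged arrays. *Lhx2* measured 21002 and 21583 in young adult and 22695 and 22450 in aged arrays. *Crym* measured 15876 and 15942 in young adult and 17523 and 18448 in aged arrays. Of the list, 13 genes were higher in the mean and 17 lower, so its sum and its median differ in direction. Melanocyte and sebaceous gland markers, read as signs of hair-bearing skin, had no call among 6 and 8 genes. The melanocyte gene *Mlana* measured 146 and 176 in young adult and 234 and 244 in aged arrays (difference 0.58, FDR = 0.277). The sebaceous gene *Scd1* differed by -0.36 (FDR = 0.291). In the mean, 4 melanocyte genes were higher and 2 lower, and 4 sebaceous genes were higher and 4 lower. The melanocyte list had a median of 0.11 and a summed level of 385 to 471 in young adult and 497 to 498 in aged arrays, with *Tyrp1* and *Oca2* above background on none. The sebaceous list had a median of 0.01 and a summed level of 6250 to 6647 in young adult and 5844 to 6097 in aged arrays, with *Awat1* and *Far2* above background on none. The part of such tissue in the levels of hair keratins and *Krtap11-1* was not tested.

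The cornified envelope genes, whose products are crosslinked under the membrane of keratinizing cells, changed in both directions. Of 55 genes on the array 7 were called higher and 3 lower, with a median of 0.14. Over all genes 1.65% were called higher and 2.33% lower. Of the 55 genes, 30 were well above background on all arrays and 7 on none. Those called higher were small proline-rich and late cornified envelope genes. *Sprr2f* rose from 65.0 and 54.1 to 168 and 209 (difference 1.66, FDR = 0.185), and *Sprr2a2* from 583 and 605 to 1096 and 1016 (difference 0.83, FDR = 0.185). The others were *Lce1a1*, *Lce1c*, *Lce1d*, *Lce1i* and *Sprr1b*. Those called lower were the transglutaminases *Tgm5*, from 784 and 788 to 378 and 384 (difference -1.05, FDR = 0.178), and *Tgm3*, from 369 and 434 to 247 and 260 (difference -0.66, FDR = 0.243), and *Sprr2d*. Of the called genes, *Lce1c*, *Sprr2a2*, *Tgm3* and *Tgm5* were well above background on all arrays. The other called genes were not, so their differences have no firm size. *Lor*, the main envelope protein of the epidermis, overlapped between ages (difference 0.07, FDR = 0.770).

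Of the genes that anchor keratin filaments to desmosomes and hemidesmosomes, 1 of 22, *Itga6*, was called lower and none higher, with a median of -0.06. Among all genes 2.33% were called lower and 1.65% higher. *Dsp*, the desmosomal plaque protein to which keratin filaments bind, differed by -0.06 (FDR = 0.790) with overlap. Of 12 other intermediate filament genes on the array 1, *Nefl*, the light neurofilament chain, was called higher (78.0 and 62.0 in young adult and 142 and 129 in aged arrays, difference 0.96, FDR = 0.224) and none lower, with a median of 0.03. *Vim*, the filament protein of mesenchymal cells, lay just outside the FDR limit, with 20761 and 21219 in young adult and 15803 and 16205 in aged arrays (difference -0.39, FDR = 0.252).

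Markers of the other cell types of the mucosa moved in part with age. Their calls stand beside 1.65% of all genes called higher and 2.33% called lower. Mature olfactory neuron markers were higher in the mean in 9 of 9 genes, with 1 called (*Stoml3*), a median of 0.15 and a summed level of 568680 to 577430 in young adult and 630370 to 638210 in aged arrays. Normalized RNA levels are not cell counts, and the paper counted fewer OMP-positive neurons in the septal epithelium of aged mice. Of 8 markers of respiratory secretory cells 2 were called higher (*Scgb3a1* and *Muc5b*) and 1 lower. The one lower was *Muc5ac*, the goblet cell mucin, from 2245 and 2704 to 553 and 597 (difference -2.10, FDR = 0.178). The list had a median of 0.07 and a summed level of 526490 to 529318 in young adult and 565050 to 585920 in aged arrays. Of 9 markers of ciliated cells none was called, with a median of -0.18 and a summed level of 35085 to 35299 in young adult and 32751 to 32792 in aged arrays. The markers of these 3 lists were well above background on all arrays except *Scgb1a1* of the secretory list, which was so on 1 array of each age. The part of these cell types in the keratin differences was not tested.

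**Figure D5:**
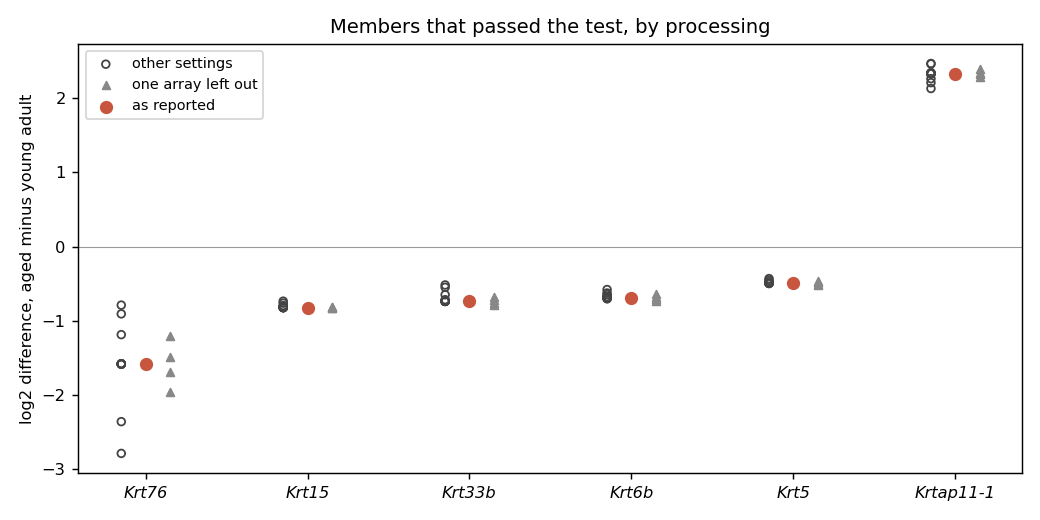
Log2 difference (aged minus young adult, vertical axis) of the 6 called members within the rule for named genes under each way of processing. The large red point is the value reported, open circles are the other settings, with all 4 arrays, and triangles leave out 1 array. Directions hold in each case, and *Krt76*, whose aged level was not above background, ranges most widely, from -2.79 to -0.79.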

How the data were processed

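RNA from the nasal mucosa was labelled with Cy3 and hybridized to Agilent 8 × 60K one-color arrays by the authors, who extracted spots with Feature Extraction 11.0.1.1 and deposited per spot a median intensity, a local background intensity (also a median), the software's processed intensity and flags, without normalization between arrays. The submitters' processing notes also name R 3.2.1. All 62976 spots of the deposited series table held that processed intensity. The mean spot intensity was not used here.

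Background was corrected by normexp (offset 0, limma 3.58.1, R 4.3.3). Control and outlier-flagged spots (88 to 118 per array) were left out, spots of a probe averaged, arrays quantile normalized, and probes of a gene averaged on the log2 scale. Unversioned accessions were looked up in RefSeq's gene table for GRCm38.p6, which named 32994 probes (58.3%). The array design follows another build, so coordinates are given only for RefSeq promoter windows. Differences were fitted by limma (lmFit, eBayes) on all 4 arrays without covariates. The fit was also run on simulated data, whose outcome is not given here. The folds of 2.98 for *Krt76* and 1.76 for *Krt27* set the brighter age against the dimmer age. Each array of the dimmer age was taken at its own level or at the lowest level well above background there, whichever was higher. That lowest level was taken over all probes, and a probe above it need not be well above background. The folds are therefore not strict bounds. The number of arrays and the signal over background limit the precision.

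The members and gene lists were chosen with earlier results of these data known. Genes named are the member DEGs, textbook keratin pairs and sentinels, the 5 hair keratins and 5 keratin-associated proteins of highest mean, and the 5 largest rises and falls among members that were well above background on both arrays of an age and whose arrays separated by age. Outside that rule lie *Krt12*, *Krt33a*, the root sheath keratins other than *Krt75*, and the keratin-associated proteins named as neighbours of *Krtap11-1*. So do the genes named from the partner and marker lists. All of these were picked after their values were seen. Alternatives were other background corrections, scalings, probe filters and averages, an intensity trend, the replicate number as a block, each array left out, and other limits. The amino acid composition of keratin-associated proteins was not analysed here.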

Additional observations from a re-analysis of the deposited data

How the results depend on the processing

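Of 29 epithelial keratins, 4 were called lower as reported. The count was 11 with an offset of 50, 10 without background correction, 11 with the processed intensity quantile normalized, 14 of the 24 left without dim probes and 13 with an intensity trend, which also called 1 higher (*Krt23*). The share of all genes called lower rose at these settings too, from 2.33% to 5.43%, 4.91%, 5.14%, 12.6% and 7.71%. It was 0 with the replicate number as a block, where 16 members had an unadjusted *P* below 0.05 in limma and the smallest FDR over all genes was 0.433, 0 with each array left out (11 to 20 members with an unadjusted *P* below 0.05) and 0 at an FDR below 0.05, against 18 members with an unadjusted *P* below 0.05 as reported. At these 3 settings the counts of hair keratins called lower, of root sheath keratins and of keratin-associated proteins called higher, and of member DEGs in each direction also fell to 0. Young adult array 1 and aged array 1 share a slide and the other arrays only their number. The deviations of these arrays from their group means correlated at -0.0779, and the labels state no pairing, so the numbers were not taken as pairs. The slide as a random block could not be fitted, as only 1 slide held more than 1 array.

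Root sheath keratins called higher went from 1 to 2 with offsets of 16 and 50, cyclic loess, the most intense probe or linear averages, and to 0 with scaling to the 75th percentile or without dim probes, which called 1 lower. Without dim probes 2 hair keratins were called lower. Keratin-associated proteins called higher went from 1 to 2 without dim probes and with the trend, and those called lower from 0 to 1 (offset 16, cyclic loess, linear averages) or 2 (offset 50, no background correction, quantile normalized processed intensity, no dim probes, trend). With no limit on level and fold, the member DEGs were 2 higher and 5 lower, and at a fold of 2 none was lower. Without dim probes, where 12.6% of all genes were called lower and 11.7% higher, the calls were 5 lower for the cornified envelope, 5 lower for desmosomes, 2 higher and 7 lower for the hair shaft, and 2 higher and 3 lower for other intermediate filaments. The median of the root sheath keratins was -0.17 without dim probes, -0.0874 with the most intense probe or linear averages, and -0.0275 to 0.13 with an array left out. *Krt75* turned to -0.26 without dim probes and with the most intense probe. *Krt5* lost its call with the processed intensity scaled to the 75th percentile (FDR = 0.255). In every setting run, 24 to 27 of 29 epithelial keratins were lower (21 of 24 without dim probes), with a median of -0.31 to -0.24. The causes were not tested. With 2 arrays per age and dim hair keratins, differences of members near background have no firm size.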
